A study of Mus musculus with 7 samples.

Results

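The immediate early AP-1 and EGR genes are 10 genes chosen by name, Fos, Fosb, Fosl2, Jun, Junb, Jund, Egr1, Egr2, Egr3 and Ier2, and all 10 were found among the 49671 Ensembl genes of the count table. Their mRNA was measured by sequencing in whole femurs of wild-type mice taken 3 days after a traumatic brain injury (TBI, 4 libraries) and of uninjured wild-type mice (control, 3 libraries). The injury was a controlled cortical impact, a piston strike on the exposed brain. The controls are described as uninjured, with nothing said of sham surgery, so anaesthesia and surgery cannot be told apart from the impact. Each bone was crushed whole, so a library mixes bone, cartilage, marrow and any muscle left attached. The labels name no strain, age or sex and no time between death and lysis. Whether the numbered replicates are separate mice is not said either, and a p-value then reflects only how far these libraries spread, which may be technical.

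Immediate early genes are switched on within minutes of a stimulus without the need for new protein. Kinases of the MAPK cascade and the factors SRF, ELK and CREB, already present in the cell, act on serum response and cyclic AMP response elements near their starts. FOS and JUN proteins pair into the dimeric transcription factor AP-1, in which JUN proteins can also pair with each other and FOS proteins cannot, while EGR proteins bind GC-rich sites through zinc fingers. In the mouse skeleton Fos is required for osteoclasts to form, and Fosb isoforms and Fosl2 act in bone-forming osteoblasts. Because many of these mRNAs are short-lived and respond to the handling of a tissue, the level of the members in each library also serves as a check on how the samples were collected.

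The stretches before the start sites of 4 members are shown with the regulatory letters found there, for genes often spoken of as one class. The 250 bases before each start come from RefSeq on GRCm38.p6 and run 5′ to 3′ on the gene's strand. Capitals mark a CRE half-site (TGACGT) in Fos, the TGACATCA site in Jun, the EGR site (GCGNGGGCG) in Fosb, and a CArG box, the core of the serum response element, followed by a CRE half-site on the other strand in Egr2.
Fos (chr12:85473640-85473889, plus strand): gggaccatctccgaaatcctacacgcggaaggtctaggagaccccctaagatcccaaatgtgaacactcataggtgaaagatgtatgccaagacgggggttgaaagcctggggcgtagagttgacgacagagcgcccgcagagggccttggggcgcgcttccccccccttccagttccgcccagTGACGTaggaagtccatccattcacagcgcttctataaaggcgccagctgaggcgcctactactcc
Jun (chr4:95052223-95052472, minus strand): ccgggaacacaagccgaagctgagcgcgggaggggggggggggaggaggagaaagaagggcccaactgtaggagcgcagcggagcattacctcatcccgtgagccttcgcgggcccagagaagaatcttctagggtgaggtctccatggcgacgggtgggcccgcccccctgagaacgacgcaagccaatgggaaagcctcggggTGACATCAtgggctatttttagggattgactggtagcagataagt
Fosb (chr7:19310046-19310295, minus strand): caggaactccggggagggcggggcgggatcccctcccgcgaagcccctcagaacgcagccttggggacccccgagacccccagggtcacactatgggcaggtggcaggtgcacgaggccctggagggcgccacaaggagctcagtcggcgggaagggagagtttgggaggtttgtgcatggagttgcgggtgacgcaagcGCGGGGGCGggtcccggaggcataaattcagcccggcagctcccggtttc
Egr2 (chr10:67537619-67537868, plus strand): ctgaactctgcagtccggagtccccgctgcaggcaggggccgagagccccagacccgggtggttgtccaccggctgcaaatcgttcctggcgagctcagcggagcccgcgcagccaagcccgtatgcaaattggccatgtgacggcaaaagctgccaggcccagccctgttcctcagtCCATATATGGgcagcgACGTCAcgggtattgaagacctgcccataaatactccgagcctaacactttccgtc
Both strands were searched in 7 members: Fos, Fosb, Fosl2, Jun, Junb, Jund and Egr2. Egr1, Egr3 and Ier2 were not searched, so nothing is said here of their elements. The Jund window (chr8:70697489-70697738) ends upstream of the GENCODE start of the gene measured here (70698949). The bases directly before that start were therefore not searched. A CArG box was found in 1 of the 7 (Egr2), against 1.47% of 32851 such windows, and TGACATCA in 1 (Jun), against 2.93%. The half-site TGACGT was in 2 (Fos and Egr2), against 6.47%, and GCGNGGGCG in 2 (Fosb and Fosl2), against 4.7%. The full CRE TGACGTCA, which contains the half-site, and the AP-1 site TGANTCA were found in 0 of the 7, against 1.55% and 6.75% of windows. Egr2 has 5 annotated starts, and the third is shown. A member was counted if any of its windows matched, while the percentages are of single windows, so the 2 are not like for like. The first Egr2 window holds neither the CArG box nor the half-site. These matches describe letters in a short window and say nothing of factors bound in these femurs. Elements more than 250 bases before a start lie outside the windows. A motif that was not found may therefore still be present farther upstream.

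Total counts per library were 15461528 to 21783534, and 1 count equals 0.0426 to 0.063 CPM, the count scaled to the library's total after TMM adjustment. The 10 members together took 0.0283% ± 0.0031 of all counts after TBI (SD, n = 4) and 0.0337% ± 0.00142 in controls (SD, n = 3). Genes that define bone, cartilage and marrow were plentiful in every library: summed over 10 osteoblast markers, 11258 to 15723 CPM after TBI and 16936 to 29083 CPM in controls. Among the cell type lists the libraries differed most in muscle and in neutrophils, and widely too in B cells and adipocytes. The B cell markers summed to 67.0 to 227 CPM after TBI and 181 to 298 CPM in controls. The adipocyte markers summed to 296 to 1018 CPM after TBI and 306 to 447 CPM in controls. The 12 skeletal muscle markers summed to 22356 to 117126 CPM after TBI and 18849 to 63946 CPM in controls, and the 10 late neutrophil markers to 1941 to 11697 CPM after TBI and 2744 to 4519 CPM in controls, with no marker of either list at 0 in any library.

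The AP-1 and EGR genes differed widely in level, and per kilobase Jund was the most abundant of the 10 in every library. On the scale of CPM per kilobase of exon, over all 7 libraries, the level of Jund averaged 60.8 (range 53.5 to 77.6) and lay above every value of every other member. Jun (15.5), Ier2 (14.8) and Junb (12.2) followed in mean level, and their ranges overlapped. Junb lay above Egr1 in each of the 7 libraries. Next came Egr1 (6.14), Fosl2 (5.90) and Fos (5.49), which could not be ordered among themselves because their ranges overlapped too. Egr2 (0.592), Egr3 (0.495) and Fosb (0.410) lay lowest, at 0.994 CPM per kilobase or less in every library, and overlapped with each other. The lowest value of Fos, 2.81 CPM per kilobase, still lay above all of these.

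**Figure D1:**
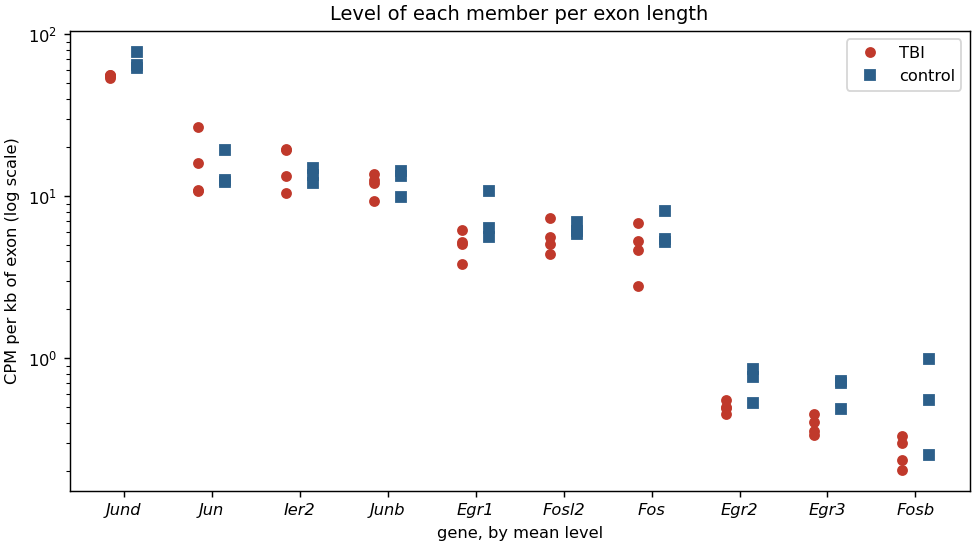
Level of each member in CPM per kilobase of exon (log axis), with genes ordered by their mean over 7 libraries; circles are the 4 TBI libraries and squares the 3 control libraries. Jund stands above the other genes, and Egr2, Egr3 and Fosb form a low group at 0.994 or below.

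The JUN family (Jun, Junb and Jund) summed to 83.2 ± 6.45 CPM per kilobase after TBI (SD, n = 4) and 95.4 ± 10.3 in controls (SD, n = 3), and the FOS family (Fos, Fosb, Fosl1 and Fosl2) to 10.9 ± 2.03 after TBI and 13.3 ± 1.598 in controls. The JUN sum was 7.84 ± 1.46 times the FOS sum after TBI and 7.26 ± 1.28 times in controls, a difference smaller than the SD of either group. Jund made up 66.5% ± 4.13 of the JUN sum after TBI and 71.5% ± 4.204 in controls, a difference larger than the SD of either group but with overlapping libraries, and it was not tested. The EGR family summed to 5.95 ± 1.02 CPM per kilobase after TBI and 8.93 ± 2.78 in controls, of which Egr1 made up 84.9% ± 1.49 after TBI and 84.0% ± 4.26 in controls. The family genes outside the list were barely detected: Fosl1 had at most 8 counts in any library, and Egr4 had 0 counts in all 7, which allows up to 0.128 to 0.189 CPM by counting error alone (3 counts).

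No member passed the test between TBI and control. All 10 passed the filter on low counts, and 0 of them reached an adjusted p under 0.05 in edgeR's quasi-likelihood test over 17144 genes, where the background was also 0% called. The estimate was lower after TBI for 8 of the 10, against 45.6% of all genes tested, with a median log2 fold change of −0.33 against 0.03 over all genes tested. At an unadjusted p under 0.05 there were 4 members (Fosb, Jund, Egr1 and Egr3), all lower, against a background of 7.34%. DESeq2 called 0 of the 10, against 0.736% of the genes to which it gave an adjusted p. In whole-tissue RNA, fewer cells of a type and less RNA per cell cannot be told apart.

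**Figure D2:**
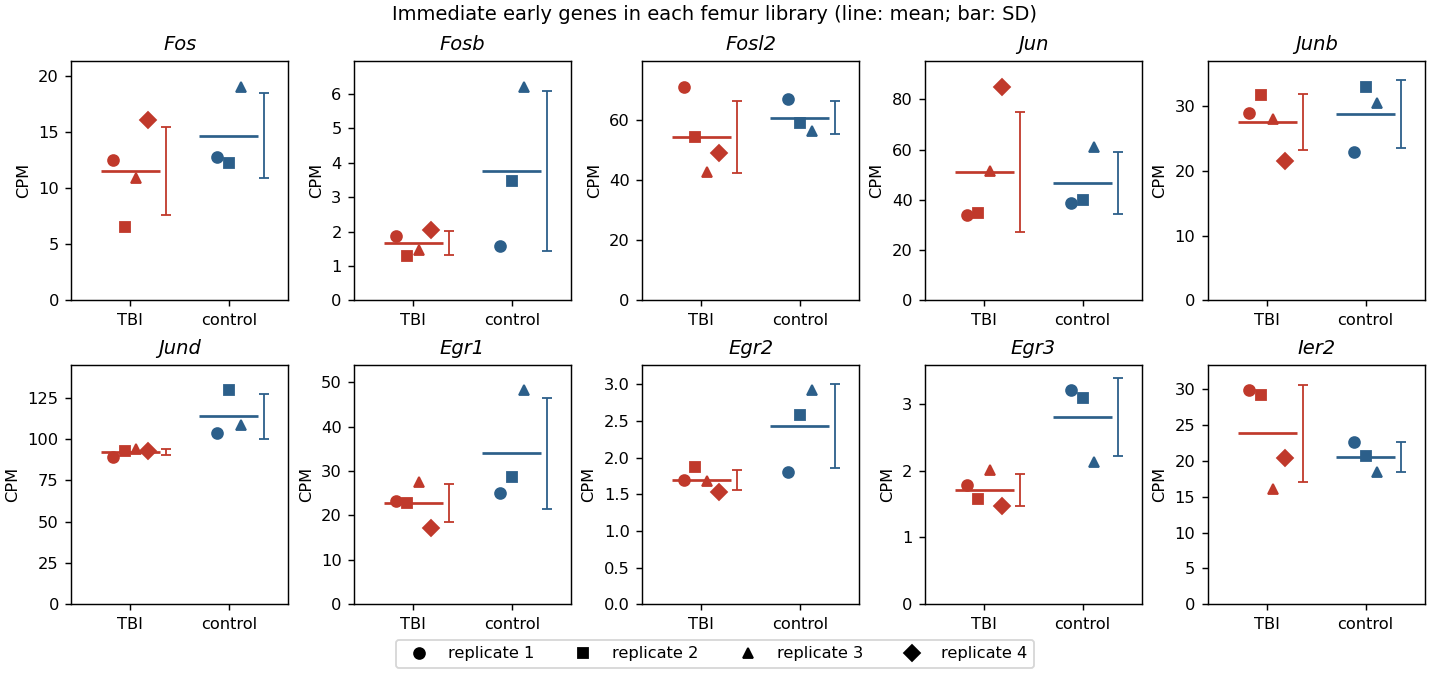
CPM of each member in every library, TBI on the left and control on the right of each panel; marker shapes give the replicate number, lines the group mean and bars the SD (n = 4 and n = 3). The groups overlap in 8 panels, and in Jund and Egr3 every TBI point lies below every control point.

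The EGR genes, zinc finger transcription factors, were all lower by estimate after TBI. Egr3 (GRCm38, ENSMUSG00000033730, chr14:70077203-70082614), which acts downstream of growth factor and antigen receptor signals, measured 1.78, 1.58, 2.01 and 1.48 CPM in TBI 1 to 4 and 3.20, 3.09 and 2.14 CPM in controls 1 to 3. The TBI values all lay below the control values, as for 5.38% of all genes tested, although TBI 3 and control 3 were close. The log2 fold change was −0.72 ± 0.25 (SE), with a 95% interval of −1.29 to −0.15 and an edgeR adjusted p of 0.609, and it rests on 28 to 71 counts a library.

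Egr1 (ENSMUSG00000038418, chr18:34859823-34864984), the most abundant EGR gene here and one known to respond to mechanical load, measured 23.2, 22.9, 27.6 and 17.2 CPM in TBI 1 to 4 and 25.1, 28.6 and 48.2 CPM in controls 1 to 3. Control 3 stood well above the other libraries, and TBI 3 lay within the range of the controls. The log2 fold change of −0.58 ± 0.24 (SE; 95% interval −1.14 to −0.02; edgeR adjusted p = 0.67) was −0.24 without control 3. Egr2 (ENSMUSG00000037868, chr10:67535475-67542188), required for myelination and segmentation of the hindbrain, measured 1.69, 1.87, 1.68 and 1.53 CPM in TBI 1 to 4 and 1.81, 2.58 and 2.92 CPM in controls 1 to 3. Only TBI 2 reached into the control range, just above control 1. Its log2 fold change was −0.52 ± 0.25 (SE; 95% interval −1.09 to 0.06; edgeR adjusted p = 0.709). Within the TBI group Egr2 varied by 8.33% (coefficient of variation), less than the 16.7% that counting error alone gives at its mean count.

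Among the JUN genes, which encode the AP-1 subunits able to pair with themselves, only Jund had separate groups. Jund (ENSMUSG00000071076, chr8:70698949-70700616) measured 89.2, 92.5, 93.6 and 92.9 CPM in TBI 1 to 4 and 104, 129 and 108 CPM in controls 1 to 3. The TBI libraries were as close to each other as counting error allows (coefficient of variation 2.11%, against 2.28% from counting), and the controls spread over 12.1%. The log2 fold change was −0.31 ± 0.11 (SE; 95% interval −0.57 to −0.04; edgeR adjusted p = 0.624), and it was −0.20 without control 2. Junb (ENSMUSG00000052837, chr8:84974484-84978718), a subunit often opposed to Jun in cell growth, measured 28.8, 31.8, 28.0 and 21.5 CPM in TBI 1 to 4 and 22.9, 33.0 and 30.5 CPM in controls 1 to 3. The groups covered the same range, and the log2 fold change of −0.06 ± 0.17 (SE; 95% interval −0.46 to 0.33) had no stable direction: it was 0.038 without TBI 4 and 0.042 without control 2.

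Jun (ENSMUSG00000052684, chr4:95049034-95052222), the founding subunit, had the widest spread of the abundant members. It measured 34.1, 34.6, 51.35 and 85.1 CPM in TBI 1 to 4 and 38.9, 40.2 and 61.2 CPM in controls 1 to 3. TBI 4 was the highest library, TBI 1 and TBI 2 were the lowest, and the controls lay between them. The log2 fold change was 0.13 ± 0.33 (SE; 95% interval −0.63 to 0.89; edgeR adjusted p = 0.926). It was −0.22 without TBI 4 and 0.37 without control 3. Skeletal muscle markers were also highest in TBI 4, TBI 3 and control 3, at 117126, 92885 and 63946 CPM in sum. All 12 had a higher estimate after TBI, against 54.4% of all genes tested, though 0 reached an unadjusted p under 0.05. With the mean of that list as a covariate the log2 fold change of Jun was −0.21. What muscle RNA contributes to Jun was not tested.

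Reads on the opposite strand bear on the JUN genes, since the library kit keeps strand but no source used here says whether counting did. Junos, an antisense gene that overlaps Jun by 689 bases, had 131, 114, 115 and 236 counts in TBI 1 to 4 and 74, 53 and 123 counts in controls 1 to 3. It was highest in TBI 4, as was Jun. Gm11175, antisense to Jund over 919 bases, had 14 to 46 counts a library, and Prdx2, a peroxiredoxin gene with 10864 to 22546 counts, overlaps the 3′ end of Junb by 351 bases on the other strand. The values of Jun, Junb and Jund are uncertain to that extent.

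The FOS genes, whose products need a JUN partner to bind DNA, differed in how the libraries ranked. Fos (ENSMUSG00000021250, chr12:85473890-85477273) measured 12.5, 6.60, 10.95 and 16.1 CPM in TBI 1 to 4 and 12.8, 12.2 and 19.1 CPM in controls 1 to 3. TBI 2 was the lowest library and control 3 the highest, and TBI 1 and TBI 4 lay within the control range. The log2 fold change was −0.35 ± 0.29 (SE; 95% interval −1.02 to 0.32; edgeR adjusted p = 0.773), and it ran from −0.55 without TBI 4 up to −0.12 without control 3.

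Fosb (ENSMUSG00000003545, chr7:19302696-19310051), a subunit with a long and a short protein form, had the largest estimate of the 10 and the lowest mean level per kilobase. It measured 1.87, 1.28, 1.46 and 2.06 CPM in TBI 1 to 4 and 1.58, 3.47 and 6.20 CPM in controls 1 to 3, from 43, 30, 27 and 39 counts after TBI and 35, 55 and 119 counts in controls. Control 3 stood far above the rest, while control 1 lay inside the TBI range. The log2 fold change was −1.17 ± 0.43 (SE; 95% interval −2.15 to −0.19; edgeR adjusted p = 0.616), and −0.59 without control 3. Counts per gene do not separate the full-length and the short Fosb isoform. Fosl2 (ENSMUSG00000029135, chr5:32135801-32157842), which encodes FRA-2, measured 71.0, 54.4, 42.8 and 49.1 CPM in TBI 1 to 4 and 67.0, 58.9 and 56.4 CPM in controls 1 to 3. TBI 1 was the highest library and the other TBI libraries lay below all controls, at a log2 fold change of −0.16 ± 0.17 (SE; 95% interval −0.56 to 0.23; edgeR adjusted p = 0.81) and of −0.32 without TBI 1, −0.062 without TBI 3 and −0.085 without control 1. It was −0.38 with the late neutrophil mean as a covariate and −0.050 with the muscle mean.

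Ier2 (ENSMUSG00000053560, chr8:84661331-84662852), a nuclear protein of the immediate early response outside both families, was the other member with a higher estimate beside Jun. It measured 29.8, 29.2, 16.1 and 20.4 CPM in TBI 1 to 4 and 22.6, 20.7 and 18.5 CPM in controls 1 to 3. TBI 1 and TBI 2 lay above all controls, TBI 3 lay below them, and the log2 fold change was 0.22 ± 0.22 (SE; 95% interval −0.29 to 0.72; edgeR adjusted p = 0.802). It was 0.092 without TBI 1, 0.094 without TBI 2, 0.14 without control 3 and 0.36 without TBI 3. The late neutrophil markers were likewise highest in TBI 1 and TBI 2 and lowest in TBI 3, at 11697, 7456 and 1941 CPM in sum. In TBI 4 these markers, at 6331 CPM, also lay above all controls (2744 to 4519 CPM), while Ier2 lay within the control range. All 10 markers had a higher estimate after TBI, against 54.4% of all genes tested. Of them 1 had an unadjusted p under 0.05, against 7.34%. With the mean of the marker list as a covariate the log2 fold change of Ier2 was −0.09. The part of neutrophil RNA in Ier2 was not tested.

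**Figure D3:**
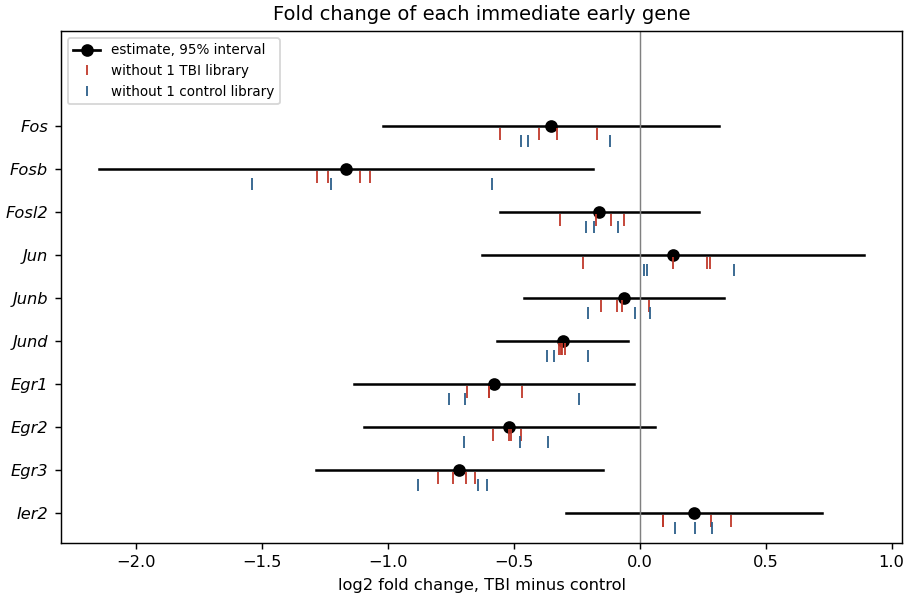
Log2 fold change (TBI minus control) of each member with its 95% interval (black, edgeR, unadjusted), and the estimates with 1 TBI library (red ticks) or 1 control library (blue ticks) left out. The intervals of Fosb, Jund, Egr1 and Egr3 lie below 0, and the estimates of Fosb and Egr1 move nearest to 0 without control 3.

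The intervals bound what these libraries can show. The highest upper bound of any member was 1.85-fold (Jun), followed by Ier2 at 1.65-fold, and the lowest lower bounds were 0.226-fold for Fosb and 0.41-fold for Egr3. With all libraries 4 members had an unadjusted p under 0.05 in edgeR, as did 7.34% of all genes tested. There were 2 without control 3 (Jund and Egr3, against 5.67% of all genes). There were also 2 without control 2 (Fosb and Egr1, against 3.36%) and 2 without TBI 2 (Jund and Egr3, against 6.97%). The count was 4 without control 1 (against 7.02%). It was 3 without TBI 1 (against 10.2%), without TBI 3 (8.98%) and without TBI 4 (5.62%). Within groups, 7 of the 10 members had a larger SD of log2 CPM than the median of the 500 tested genes nearest in mean level. Jun stood highest in this respect (SD 0.53 against a median of 0.18, above 93.8% of those genes), and Fos was at 0.45 against 0.22. Jund, Egr2 and Egr3 lay below their medians.

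The members did not share one library profile. Each of the 10 had its lowest value in a TBI library, and 7 had their highest in a control library, 4 of them (Fos, Fosb, Egr1 and Egr2) in control 3. The shares of all genes tested with such a lowest or highest library were not computed. The groups also differ in size (4 TBI and 3 control libraries), which alone shifts these counts. The root-mean-square difference between the centred log2 CPM profiles of 2 members ran from 0.203 (Jund and Egr2) to 0.882 (Fosb and Ier2) over the 45 pairs, with a median of 0.483. In 2 pairs (Jund with Egr3, and Fosb with Egr2) both genes lay on the same side of their own mean in all 7 libraries. Averaged over the 10, the deviation from each gene's mean was −0.06, −0.23, −0.17 and −0.11 in TBI 1 to 4 and −0.02, 0.20 and 0.39 in controls 1 to 3 on the log2 scale. Control 1 lay close to TBI 1, and control 3 farthest above. Osteoblast and chondrocyte markers had lower estimates after TBI as well, 10 of 10 in each list, with 9 at an unadjusted p under 0.05, 0 calls in edgeR and 4 in DESeq2 in each, and no marker at 0. Lower estimates were also found for 9 of 9 erythroid markers (5 at an unadjusted p under 0.05, 0 calls in edgeR, 5 in DESeq2), 10 of 10 B cell markers (0 at that p) and 7 of 8 osteoclast markers (4 at that p), with no calls by either tool in those last lists and no marker at 0. Adipocyte markers went the other way, 6 of 6 higher (1 at an unadjusted p under 0.05, 0 calls by either tool), as did muscle and late neutrophil markers. Over all genes tested, 45.6% had a lower and 54.4% a higher estimate, and 7.34% had an unadjusted p under 0.05 in edgeR. DESeq2 called 0.736% of the genes to which it gave an adjusted p. The part of these cell types in the level of the members was not tested.

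**Figure D4:**
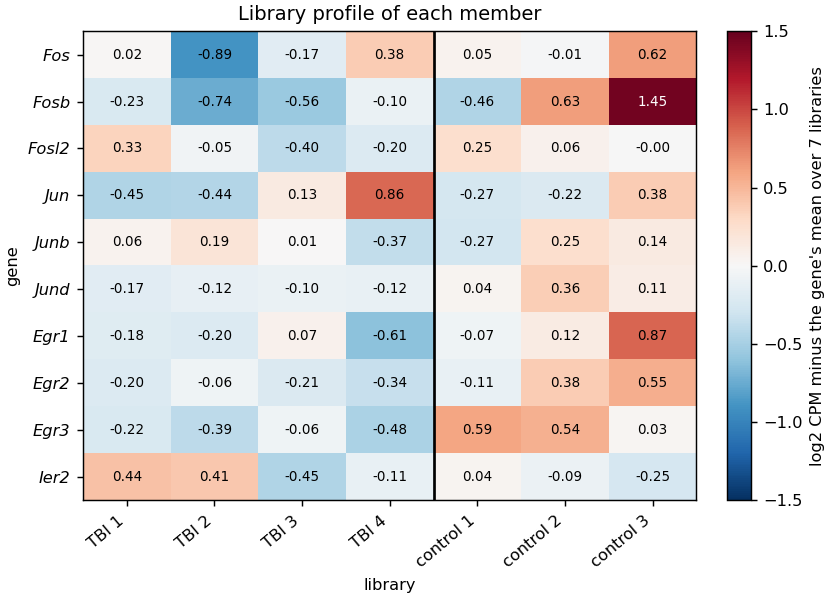
Log2 CPM of each member in each library minus the gene's mean over the 7 libraries (red higher, blue lower), with TBI libraries left of the line and controls right of it. Control 3 holds the strongest positive value (Fosb, 1.45) and TBI 2 the strongest negative one (Fos, −0.89), and Jun and Ier2 run differently from the EGR genes.

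Of the other protein-coding genes, those with the most similar profile were Thy1, a surface glycoprotein of T cells and stromal cells, Appl2, an endosomal adaptor, Cep97, a centrosomal protein, Rgl1, a Ral exchange factor, Spata6 and Ivns1abp. Their root-mean-square difference from the mean profile of the members ran from 0.0596 (Thy1) to 0.0824 (Ivns1abp) over the 7 libraries, against a median of 0.292 over 11437 candidate genes. The 6 genes were picked as the nearest, so small differences follow from the choice. The mean profile of the members itself had a root mean square of 0.204. None of the 6 is an immediate early gene of the lists used here. Their edgeR adjusted p-values were 0.609 to 0.712.

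The other immediate early genes also leaned to lower estimates after TBI, and the difference between them and the 10 members was not tested. Of 44 such genes, 42 were tested, 18 with a higher and 24 with a lower estimate after TBI, where 45.6% of all genes tested were lower. Their median log2 fold change was −0.14, and 0 passed the threshold in edgeR or in DESeq2. At an unadjusted p under 0.05 there were 8, against the background of 7.34%, of which 7 were lower (Myc, Ccn1, Ccn2, Zfp36l1, Btg2, Nr4a2 and Arc) and 1 higher (Srf). The TBI values all lay below the control values in 5 of the 42, against 5.38% of all genes tested. Those outside the 3 of smallest p were named after their values were seen. Myc, a growth regulator, measured 46.7, 48.7, 37.1 and 37.0 CPM in TBI 1 to 4 and 60.9, 54.2 and 51.9 CPM in controls 1 to 3, with separate groups (log2 fold change −0.39 ± 0.14, SE; edgeR adjusted p = 0.608). Ccn1, a secreted matricellular protein, was at −0.59 ± 0.21 with overlapping groups (edgeR adjusted p = 0.609).

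Upstream of the members, the transcript of Srf, the factor that binds the serum response element, measured 63.3, 65.3, 74.0 and 87.0 CPM in TBI 1 to 4 and 52.3, 54.9 and 57.2 CPM in controls 1 to 3. The TBI values all lay above the control values, as for 2.66% of all genes tested (log2 fold change 0.40 ± 0.13, SE; edgeR adjusted p = 0.588). Its order within the TBI group was that of the muscle markers, and with their mean as a covariate the log2 fold change was 0.30 (edgeR adjusted p = 0.129). Of the 25 upstream kinases and factors, 22 had a higher estimate after TBI, against 54.4% of all genes tested, at a median log2 fold change of 0.10. In edgeR 0 of the 25 passed and 4 reached an unadjusted p of 0.05, against 7.34% of all genes tested, and the DESeq2 count was 0. Srf belongs to both this list and the previous one. Map2k1, the kinase MEK1 of the ERK cascade, was at 0.34 ± 0.11 with separate groups (edgeR adjusted p = 0.556), and Mrtfa, a partner of SRF that senses actin, at 0.44 ± 0.17 (edgeR adjusted p = 0.624).

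The partners of AP-1 and the corepressors of EGR proteins gave no call either, where edgeR called 0% of all genes tested. Of 15 bZIP partners, 13 were tested, 7 with a higher and 6 with a lower estimate at a median of 0.00. Over all genes tested, 54.4% had a higher and 45.6% a lower estimate. In edgeR 0 of the 13 had an unadjusted p under 0.05, against 7.34% of all genes tested. DESeq2 called 0, against 0.736% of the genes to which it gave an adjusted p. Among the partners Maff was at −0.44 ± 0.23, Atf3, a stress-induced factor, at 0.67 ± 0.36 and Maf at 0.62 ± 0.35 (log2 fold change ± SE). Atf3 and Maf were highest in TBI 4 and TBI 3, at 15.4 and 10.9 CPM and at 147 and 116 CPM, and so were the muscle markers. Atf3 and Maff also belong to the other immediate early genes. Nr4a1 of that list, named after its values were seen, was likewise highest in TBI 4 and TBI 3 (192 and 92.3 CPM). Further genes of that list peaked in other libraries. The source of the high values in TBI 4 was not tested. With the muscle mean as a covariate the log2 fold change was 0.31 for Atf3 and 0.20 for Maf, and without TBI 4 it was 0.36 for Atf3 and 0.32 for Maf. Nab2, a corepressor that EGR1 itself induces, was at −0.47 ± 0.20 (edgeR adjusted p = 0.67), beside Nab1 at 0.03 ± 0.12, and these were the 2 tested genes of a list of 4.

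Genes known as targets of AP-1 or EGR proteins had a median log2 fold change of −0.23 over 19 tested of 22. By estimate 12 were lower and 7 higher, where 45.6% of all genes tested were lower. In edgeR 0 passed and 4 reached an unadjusted p of 0.05, against 7.34% of all genes tested, and the DESeq2 count was 0. Ccnd1, which encodes cyclin D1, measured 31.2, 28.0, 29.7 and 28.7 CPM in TBI 1 to 4 and 39.5, 49.9 and 36.4 CPM in controls 1 to 3, with separate groups (−0.51 ± 0.13, SE; edgeR adjusted p = 0.438). Timp1, an inhibitor of matrix proteases, was at −0.60 ± 0.19 and Spp1, osteopontin, at −0.54 ± 0.22. Spp1 is also one of the 10 osteoblast markers described above.

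As a check of tissue handling, heat shock genes that respond to dissociation were examined. They gave no call in edgeR, which called 0 of all 17144 genes tested. The bones were crushed whole, and how these genes respond to that was not tested. Of 16 genes, all tested, 10 had a higher and 6 a lower estimate at a median log2 fold change of 0.08. Over all genes tested, 54.4% had a higher estimate. In edgeR 0 of the 16 had an unadjusted p under 0.05, against 7.34% of all genes tested. DESeq2 called 0, against 0.736% of the genes to which it gave an adjusted p. The mean deviation of the list was −0.16, −0.01, 0.13 and 0.12 on the log2 scale in TBI 1 to 4 and 0.00, −0.08 and 0.00 in controls 1 to 3. Control 3, the library with the highest level of Fos, Fosb, Egr1 and Egr2, lay in the middle of this range. Whether the heat shock genes and the members respond to the same handling was not tested. The other immediate early genes deviated by 0.05, −0.10, −0.24 and 0.16 in TBI 1 to 4 and by 0.07, −0.06 and 0.12 in controls 1 to 3, so that TBI 4 was highest there and control 3 second. Hspd1, a mitochondrial chaperone, was at 0.22 ± 0.14, Chordc1 at 0.23 ± 0.16 (0.46 without control 1, 0.13 without control 2) and Ubb, a polyubiquitin gene, at −0.19 ± 0.14 (log2 fold change ± SE). The Ubb values after TBI all lay below the control values, as for 5.38% of all genes tested. Hspa1a and Hspa1b, which are near-identical copies and may share reads, were at 0.20 ± 0.32 and −0.05 ± 0.33 and were named after their values were seen.

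**Figure D5:**
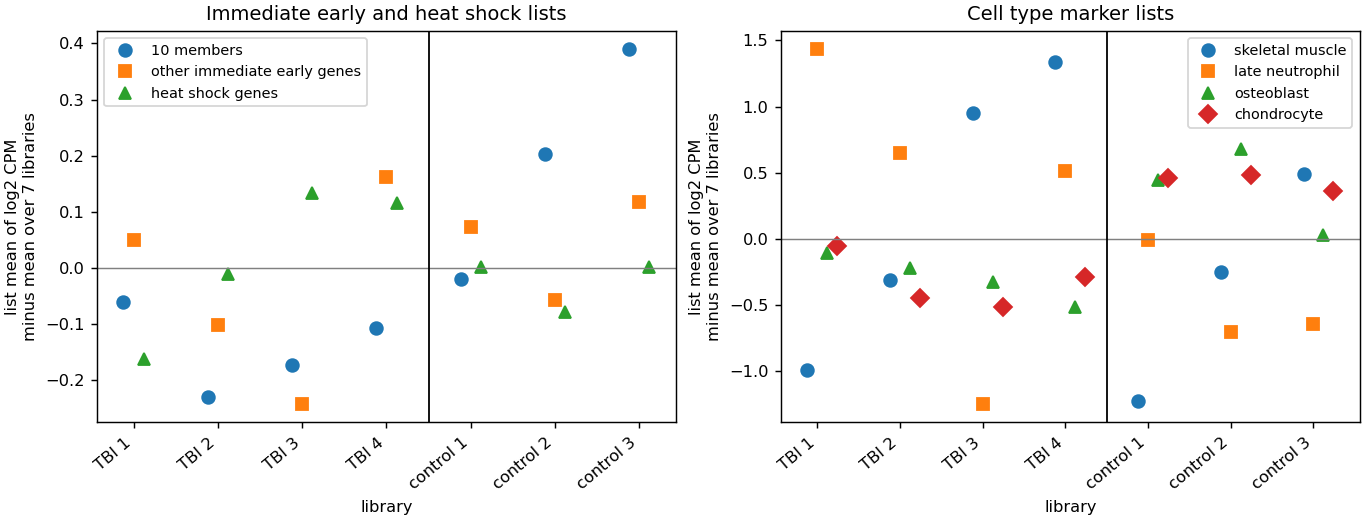
Mean over each list of log2 CPM minus the gene's mean over 7 libraries, for the members, the other immediate early genes and the heat shock genes (left) and for 4 cell type marker lists (right); TBI libraries stand left of the line. The members are highest in control 3 (0.39), the heat shock genes in TBI 3 (0.13), and the muscle markers in TBI 4 (1.34).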

How the data were processed

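Stranded mRNA libraries were made from column-purified femur RNA, per the labels' protocols. Per the submitters' processing notes, STAR and DESeq were used with GRCm38; no version is listed, and no source used here states how reads were counted or whether strand was used. The authors deposited raw read counts per Ensembl gene, which all main tests used, and normalized values of 18549 genes, a deposited log2 scale as judged from the values, with a floor of 4.21. Symbols, positions and exon lengths came from GENCODE M21 on GRCm38, matching 49326 of 49671 identifiers.

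Counts were filtered with filterByExpr (17144 genes), scaled by TMM and tested with edgeR 4.0.16 in R 4.3.3 (quasi-likelihood F-test, Benjamini-Hochberg over all genes tested, threshold 0.05). Alternatives used DESeq2 1.42.0 and limma 3.58.1. Log2 CPM used a prior count of 2, and spreads a pseudocount of 0.5 CPM. Within each group all library pairs differed beyond sampling noise (chi-square per degree of freedom 27.2 or more). The procedure was tested on simulated data. Limits for a count of 0 cover counting error only.

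The members and lists were chosen with earlier results of these data known. The rule named all 10 members, the 3 tested genes with the smallest p of each list other than cell type lists, any list gene past the threshold, and the 6 genes nearest in profile with a mean of at least 5 CPM.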

Additional observations from a re-analysis of the deposited data

How the results depend on the processing

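No member was called under any alternative. Over all genes, 0 were called in each of them except DESeq2, which called 114, none of them a member. Members at an unadjusted p under 0.05 numbered 4 (7.34% of all genes), 2 with limma-voom (6.68%), 2 with limma on the deposited log2 values (7.25%), 2 with the neutrophil covariate (12.5%), 5 with limma-voom quality weights (13.2%) and 5 with the muscle covariate (16.2%). Of 190 values of the members under alternatives, 8 changed sign. Jun turned to −0.062 with limma-voom quality weights, −0.219 with the replicate number as a block, −0.211 with the muscle covariate and −0.225 without TBI 4, and ran up to 0.373 with 1 library left out. Junb turned to 0.051 with the block, 0.038 without TBI 4 and 0.042 without control 2, and was −0.205 at its lowest with 1 library left out. Ier2 turned to −0.086 with the neutrophil covariate. Among other named genes 5 of 418 values changed sign, all of Nab1: −0.014 with upper-quartile scaling, −0.0042 with the neutrophil covariate, −0.0042 without TBI 1, −0.030 without control 2 and −0.020 without control 3, up to 0.139 with 1 library left out. The causes were not tested. The deviations of same-numbered TBI and control libraries from their group means had correlations of 0.549, −0.0277 and 0.322. Libraries of different numbers were not compared, so these values cannot settle whether the numbers pair the samples. The labels name no pairing, and the main fit used none. With the block 0 genes were called and 5 members had an unadjusted p under 0.05, as did 11.1% of all genes. Scaled by library totals alone, the members' mean deviation was 0.05, −0.12, −0.32 and −0.30 in TBI 1 to 4, against 0.08, 0.24 and 0.37 in controls 1 to 3. Depth limits Fosb, Egr2 and Egr3, at 27 to 119 counts a library.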
